A study of Mus musculus with 10 samples.

Results

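Mitochondrial biogenesis regulators are a set of 10 genes that control how much mitochondrial machinery a cell makes, described here in leukemic spleens of mice with transplanted T-cell acute lymphoblastic leukemia, an aggressive cancer of immature T cells. The members and the gene lists used below were chosen by symbol, with earlier results of these data known. The members are Ppargc1a, Ppargc1b, Pprc1, Esrra, Nrf1, Gabpa, Tfam, Tfb1m, Tfb2m and Polrmt. All 10 were found among the 20813 genes of the table. RNA-seq values were available for 5 samples with the genotype label Sirt1 deleted, from titles that carry the abbreviation TMX, and for 5 control samples, from titles that carry VEH. All 10 samples came from strain C57BL/6, and per the labels' protocols all leukemias carried a conditional Sirt1 allele and were injected intravenously into mice irradiated below the lethal dose. Recipients received either tamoxifen, 3 mg per mouse in corn oil by intraperitoneal injection, or corn oil alone, so that the controls carry the conditional allele too. The abbreviations divide the samples as the genotype label does, and the effect of tamoxifen itself cannot be told apart from that of the deletion. The Cre driver, the ages of the mice and the number of independent leukemias are not given in the sources used here. P-values therefore measure only the spread between these samples.

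These genes form a relay from the nucleus to the mitochondrion. The coactivators PGC-1α (Ppargc1a), PGC-1β (Ppargc1b) and PRC (Pprc1) bind no DNA themselves and act through nuclear factors such as the estrogen-related receptor ERRα (Esrra), nuclear respiratory factor NRF1 (Nrf1) and the ETS-family protein GABPα, also called NRF2α (Gabpa). Those factors switch on nuclear genes for the respiratory chain and for the proteins that copy and transcribe mitochondrial DNA. In the matrix, the polymerase POLRMT (Polrmt) works with the DNA-packaging factor TFAM (Tfam) and the initiation factor TFB2M (Tfb2m), while TFB1M (Tfb1m) is chiefly a methyltransferase of mitochondrial ribosomal RNA. SIRT1, a NAD-dependent deacetylase, is known to deacetylate PGC-1α, an effect on the protein that RNA levels do not measure.

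In these spleens Polrmt rose, Gabpa fell, and none of the other 7 members tested passed the test. Polrmt was 1.33 times its control mean and Gabpa 0.757 times. Differences below are on the scale of log2(value + 1). Ppargc1a, the best-known member, was close to absent and could not be tested. The 2 called members were 22.2% of the 9 tested, while 36.1% of all 15276 tested genes were called (limma, Benjamini-Hochberg adjusted p under 0.05). Among all tested genes, 16.8% were called higher and 19.4% lower. The members' count is read against that background and is not a result particular to them.

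The promoters of the members the results turn on are printed first, because NRF1 and GABP are known to act on promoters of the mitochondrial factors. RefSeq promoters (build GRCm38.p6, 250 bases before to 50 bases after the gene start, 5′ to 3′ on the gene's strand) were matched by symbol for 9 members, with 10 sequences in all. Words searched on both strands were the NRF1 word GCGCANGCG, the ETS word CCGGAAG bound by GABP and its relatives, the ERR word TCAAGGTCA, the CRE word TGACGTCA, the E-box word CACGTG and the Sp1 word GGGCGG. Capitals mark matches to the NRF1 and ETS words, read on either strand. Polrmt (chr10:79746532-79746831, minus strand) and Gabpa (chr16:84834874-84835173, plus strand) are shown as the members that changed. Esrra (chr19:6921759-6922058, minus strand) is shown because its call depended on a library, and Tfam (chr10:71237995-71238294, minus strand) and Tfb2m (chr1:179546227-179546526, minus strand) because they hold the same words but were not called.
Polrmt: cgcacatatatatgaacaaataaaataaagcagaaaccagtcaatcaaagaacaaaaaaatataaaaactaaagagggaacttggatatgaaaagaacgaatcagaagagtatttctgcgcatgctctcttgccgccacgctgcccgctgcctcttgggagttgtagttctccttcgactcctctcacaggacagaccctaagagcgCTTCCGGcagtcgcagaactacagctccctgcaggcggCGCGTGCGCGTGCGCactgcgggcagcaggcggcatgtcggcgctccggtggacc
Gabpa: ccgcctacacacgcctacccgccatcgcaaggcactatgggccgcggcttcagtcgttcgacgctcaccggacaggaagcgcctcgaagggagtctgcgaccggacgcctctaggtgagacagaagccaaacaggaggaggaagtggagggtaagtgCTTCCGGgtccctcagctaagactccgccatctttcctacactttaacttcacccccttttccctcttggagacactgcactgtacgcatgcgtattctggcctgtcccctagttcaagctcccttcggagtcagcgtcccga
Esrra: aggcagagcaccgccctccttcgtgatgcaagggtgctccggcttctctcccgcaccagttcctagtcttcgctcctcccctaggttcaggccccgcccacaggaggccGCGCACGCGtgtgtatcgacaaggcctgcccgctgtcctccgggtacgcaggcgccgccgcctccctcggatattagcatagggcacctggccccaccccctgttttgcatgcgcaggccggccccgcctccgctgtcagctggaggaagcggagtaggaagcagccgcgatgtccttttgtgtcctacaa
Tfam: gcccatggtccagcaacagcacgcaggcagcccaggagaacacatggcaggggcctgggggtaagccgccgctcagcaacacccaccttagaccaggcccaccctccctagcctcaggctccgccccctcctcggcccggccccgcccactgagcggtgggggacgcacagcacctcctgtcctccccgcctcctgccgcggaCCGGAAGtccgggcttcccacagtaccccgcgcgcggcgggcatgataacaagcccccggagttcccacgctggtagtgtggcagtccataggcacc
Tfb2m: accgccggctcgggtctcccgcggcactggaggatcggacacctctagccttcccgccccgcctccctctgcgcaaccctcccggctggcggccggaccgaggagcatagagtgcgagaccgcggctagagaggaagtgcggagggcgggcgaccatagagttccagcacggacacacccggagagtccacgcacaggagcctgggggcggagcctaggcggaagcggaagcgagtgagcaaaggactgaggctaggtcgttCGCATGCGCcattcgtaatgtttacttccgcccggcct

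The Polrmt promoter held both kinds of word. Positions count the RefSeq start of each promoter as 0. That start is not always the gene start of GENCODE M21 used below. It lies inside the gene for Gabpa, Tfam, Esrra, Tfb1m, Pprc1 and sequence 2 of Nrf1, among others. The Pprc1 promoter spans chr19:46056289-46056588, while that gene starts at 46044886. The ETS word of Polrmt ran from -43 to -37. Its pair of overlapping NRF1 words ran from -5 to 3 and from 1 to 9. Gabpa held an ETS word from -93 to -87, Tfam one from -47 to -41, Esrra an NRF1 word from -141 to -133 and Tfb2m an NRF1 word from 12 to 20. The ETS word was found in 3 of the 10 member sequences and in 8.86% of 32851 promoters, and the NRF1 word in 3 of the 10 and in 6.25%. The Sp1 word was found in 5 and in 35.7% of all promoters, and no match to the ERR, CRE or E-box words was found in the member sequences. The ETS word occurred in the promoter of Polrmt, which rose, of Gabpa, which fell, and of Tfam, which was not called. Only exact words were searched, and whether they bear on these directions was not tested. Across all tested genes with an ETS word, 361 of 2042 were called higher and 476 lower (17.7% and 23.3%). With an NRF1 word, 263 of 1538 were called higher and 355 lower (17.1% and 23.1%), beside 16.8% and 19.4% of all tested genes. Under upper-quartile rescaling the order of these counts turned, to 478 higher and 357 lower with the ETS word and 356 higher and 260 lower with the NRF1 word, as it did for all tested genes (3171 higher and 2247 lower). After the length and GC correction the counts were 207 higher and 672 lower with the ETS word and 167 higher and 469 lower with the NRF1 word, beside 1826 and 3862 of all tested genes. A word match is a description of the letters and does not show binding.

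Depth, approximated from the most frequent low value, was 31.4 to 38.5 M reads per library. Deposited values totalled 33.7 to 34.5 M normalized counts per sample, but as they are normalized these totals do not show library size. Sirt1 itself measured 1873 ± 146 normalized counts (SD, n = 5) in the samples labelled Sirt1-deleted and 1810 ± 62.5 (SD, n = 5) in controls, a log2 difference of 0.05 (SE 0.06, limma adjusted p = 0.568). The deleted stretch of Sirt1 is not given in the sources used here, so a value for the whole gene cannot check the deletion. The group is therefore named by its label. All 14 T lineage markers were measured at a level that could be tested, with summed levels of 184776 to 201846 in the labelled Sirt1-deleted samples and 204252 to 213379 in controls, and 2 were called higher and 4 lower (4 and 3 under upper-quartile rescaling). Other cells were present too. Of 14 neutrophil markers 13 were called higher, with sums of 28974 to 99982 in the labelled Sirt1-deleted samples against 9166 to 12659 in controls. Of 16 macrophage and monocyte markers 13 were called higher, with sums of 7333 to 13463 against 3592 to 4106. None of 13 erythroid and none of 10 B cell markers was called (limma). Erythroid sums spread widely, from 41259 to 166186 against 45325 to 139872 in controls. Among 7 tested stromal and endothelial markers 2 were called lower, with Cxcl12 and Lyve1 at 0 in some samples. The stromal and endothelial sums, over 11 genes, did not overlap, at 4978 to 5480 against 5754 to 6678 in controls. In bulk tissue, fewer cells of a type and less RNA per cell cannot be told apart.

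Levels between members were compared only per kilobase (kb) of the longest annotated coding transcript (GENCODE M21), as a description that depends on that choice of transcript. In controls, Tfam stood highest at 876 ± 60.1 normalized counts per kb (SD, n = 5), followed by Nrf1 at 788 ± 27.6, Gabpa at 753 ± 66.7 and Pprc1 at 713 ± 25.9. The control ranges of these neighbours overlapped, so their order is not resolved beyond the spread. Tfb2m (617 ± 55.1) and Esrra (565 ± 35.5) came next with overlapping ranges. Polrmt (363 ± 24.0), Tfb1m (222 ± 9.26) and Ppargc1b (144 ± 8.58) each lay apart from the next member. Ppargc1a was far below all of them at 1.22 ± 0.532 normalized counts per kb. Among the coactivators the level per kb was thus carried by PRC, then by PGC-1β, with PGC-1α close to absent.

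**Figure D1:**
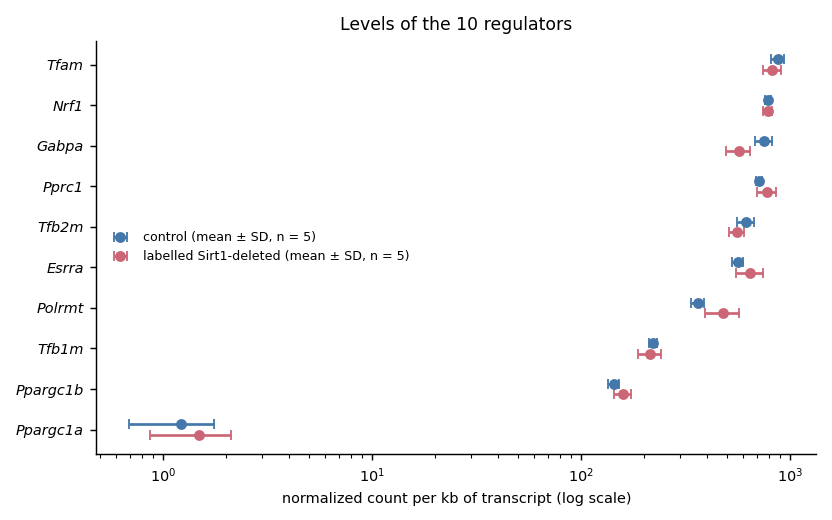
Mean normalized count per kb of transcript (log scale, error bars SD, n = 5) of each member in control (blue) and labelled Sirt1-deleted (red) samples. Ppargc1a lies at 1.22 per kb in controls, while the other members lie between 144 and 876.

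Coactivators were considered first. Ppargc1a (chr5:51454250-51567726) measured 9.22, 5.65, 3.53, 8.61 and 12.5 normalized counts in control replicates 2 to 6. In the labelled Sirt1-deleted samples it measured 4.93 in replicate 7, 12.5 in replicate 8, 12.6 in replicate 10, 5.51 in replicate 11 and 12.7 in replicate 12. Since 1 read was worth about 0.885 to 1.10 normalized counts, each value stands for a small number of reads, and the groups overlapped. Its mean was under the minimum of 10 for testing. With a minimum mean of 1 its log2 difference was 0.26 (SE 0.40, limma adjusted p = 0.688), so a change was not detectable at this depth.

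Ppargc1b (chr18:61298136-61400431) measured 520, 533, 543, 558 and 475 normalized counts in control replicates 2 to 6. It measured 551, 553, 620, 528 and 656 in labelled Sirt1-deleted replicates 7, 8, 10, 11 and 12. Only replicates 10 and 12 lay above every control. The log2 difference was 0.14 (SE 0.08, 95% interval -0.03 to 0.31, limma adjusted p = 0.175), which did not pass the test. Pprc1 (chr19:46044886-46072915), the coactivator that serum induces, measured 3592 to 3882 with a median of 3817 in controls and 3621 to 4670 with a median of 4040 in the labelled Sirt1-deleted samples. Of the latter, 3 lay above every control, and replicate 12 was the highest. Its log2 difference was 0.11 (SE 0.07, 95% interval -0.03 to 0.26, limma adjusted p = 0.197). Some of its exons overlap those of Ldb1 on the opposite strand.

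Among the nuclear DNA-binding factors, Gabpa changed, Nrf1 had close mean levels in both groups, and Esrra split the labelled Sirt1-deleted group. Gabpa (chr16:84834925-84863779) measured 4249, 3464, 3585, 3529 and 3942 normalized counts in control replicates 2 to 6. It measured 2679, 2738, 3199, 3251 and 2349 in labelled Sirt1-deleted replicates 7, 8, 10, 11 and 12. Every labelled Sirt1-deleted sample lay below every control, and replicate 12 was the lowest of all. The mean fell from 3754 ± 333 to 2843 ± 379 (SD, 5 samples each), a log2 change of -0.41 with an SE of 0.09 and a 95% interval of -0.60 to -0.21 (limma adjusted p = 0.00502). The exact two-sided permutation p was 0.00794, the smallest that 5 against 5 samples allow. Groups without overlap were found for 24.0% of all tested genes, and for 2 of the members, Gabpa and Polrmt.

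Gabpa lies head to head with Atp5j, which encodes a subunit of ATP synthase, and some exons of this pair overlap on opposite strands. Atp5j moved the other way. It rose from 5291 ± 226 to 5810 ± 141 normalized counts (SD, 5 samples each), a log2 change of 0.14 with an SE of 0.04 (limma adjusted p = 0.0262), and its groups did not overlap. Libraries were strand-specific per the labels' protocols, but whether the quantification used strand is not given in the sources used here. GABPα works with a β subunit, and the genes of both β subunits were measured. Gabpb2 fell from 7064 ± 474 to 5170 ± 734 (SD, 5 samples each), a log2 change of -0.46 with an SE of 0.09 (limma adjusted p = 0.00253). Gabpb1 measured 2325 ± 126 in controls and 2484 ± 63.7 in the labelled Sirt1-deleted samples, which did not pass (limma adjusted p = 0.139).

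Nrf1 (chr6:30047988-30153458) measured 2682 to 2921 with a median of 2805 in controls and 2673 to 3031 with a median of 2778 in the labelled Sirt1-deleted samples. These ranges overlapped almost completely. The log2 difference was -0.01 (SE 0.05), and its 95% interval of -0.11 to 0.10 was the narrowest among the members tested (limma adjusted p = 0.947).

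Esrra (chr19:6910977-6921813) measured 1386, 1248, 1294, 1224 and 1176 normalized counts in control replicates 2 to 6. It measured 1595, 1573, 1191, 1251 and 1646 in labelled Sirt1-deleted replicates 7, 8, 10, 11 and 12. Replicates 7, 8 and 12 thus lay above every control, and replicates 10 and 11 lay within the control range. Over all samples the log2 difference was 0.19 (SE 0.09, 95% interval -0.02 to 0.39), which did not pass (limma adjusted p = 0.141). Of 10 fits without 1 sample it passed in 1, that without replicate 10, at 0.25 (limma adjusted p = 0.0296). Replicate 10 had the lowest Esrra of its group, so that fit is no test of Esrra. Across all tested genes, replicates 10 and 11 also lay closest to the control mean, at a root mean square log2 distance of 0.597 and 0.520, against 0.637 to 0.735 in the other 3. With both left out, a choice made after seeing the data, 45.6% of tested genes were called and the Esrra difference was 0.34. These are the samples whose Esrra lay within the control range, so that value is a description and no test. Replicates 10 and 11 also had the lowest neutrophil marker sums of their group, at 28974 and 39752, against 44849 to 99982 in the other 3. The other marker lists did not set them apart. Macrophage and monocyte sums were 7333 in replicate 10 and 8627 in replicate 11, with 8279 in replicate 12. Erythroid sums were 100771 in replicate 10 and 166186 in replicate 11, with 137996 in replicate 7. The part of other cells in the Esrra values was not tested. Esrra exons overlap those of Trmt112 on the opposite strand, and Trmt112 rose by a log2 difference of 0.18 (SE 0.06, limma adjusted p = 0.0229).

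**Figure D2:**
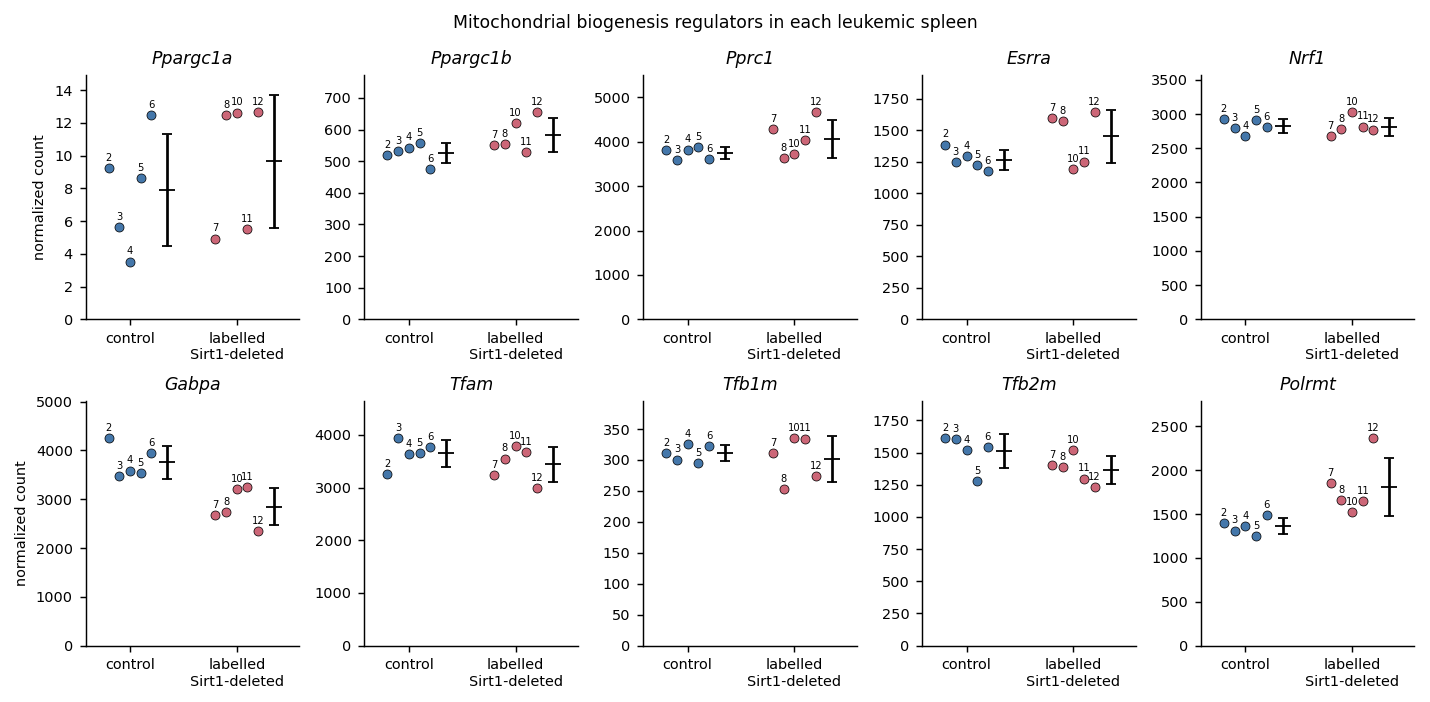
Normalized count of each member in each sample (axes from 0), with replicate numbers beside the points and the mean ± SD (n = 5) as a bar. Gabpa and Polrmt are the members whose groups do not overlap, and Esrra is high in labelled Sirt1-deleted replicates 7, 8 and 12 only.

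Among the genes of the mitochondrial transcription machinery, the polymerase rose and its partners did not pass the test. Polrmt (chr10:79736123-79746581) measured 1400, 1311, 1363, 1251 and 1489 normalized counts in control replicates 2 to 6. It measured 1855, 1660, 1525, 1647 and 2365 in labelled Sirt1-deleted replicates 7, 8, 10, 11 and 12. All labelled Sirt1-deleted samples lay above all controls, replicate 10 just so and replicate 12 by far. The mean rose from 1363 ± 90.0 to 1810 ± 332 (SD, 5 samples each), a log2 change of 0.39 with an SE of 0.10 and a 95% interval of 0.17 to 0.62 (limma adjusted p = 0.0110; exact two-sided permutation p = 0.00794). Without replicate 12 the log2 difference was 0.29 and still passed (limma adjusted p = 0.00976). No annotated exon of another gene overlaps Polrmt, and its transcripts share no stretch of 31 bases with those of other genes.

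Tfam (chr10:71225464-71238280) measured 3258, 3938, 3631, 3655 and 3767 normalized counts in control replicates 2 to 6 and 3235, 3548, 3788, 3666 and 2985 in labelled Sirt1-deleted replicates 7, 8, 10, 11 and 12. The groups overlapped, and replicate 12 was the lowest of all. The log2 difference was -0.09 (SE 0.07, 95% interval -0.24 to 0.07, limma adjusted p = 0.366). Tfb2m (chr1:179528055-179546267) measured 1280 to 1612 with a median of 1540 in controls and 1234 to 1519 with a median of 1388 in the labelled Sirt1-deleted samples. Its log2 difference was -0.14 (SE 0.08, 95% interval -0.31 to 0.02, limma adjusted p = 0.160). The lowest control, replicate 5, stood apart from the others, and without it the difference was -0.20 and passed (limma adjusted p = 0.0424). As the sample left out had the lowest Tfb2m of the controls, that fit is no test of Tfb2m. Tfb2m transcripts share 35.2% of their 31-base stretches with the predicted gene Gm1818, so its value is uncertain. Tfb1m (chr17:3519256-3557781) measured 295 to 325 in controls and 252.4 to 335 in the labelled Sirt1-deleted samples, with 2 of the latter above and 2 below all controls. Its log2 difference was -0.05 (SE 0.10, 95% interval -0.26 to 0.16, limma adjusted p = 0.713).

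**Figure D3:**
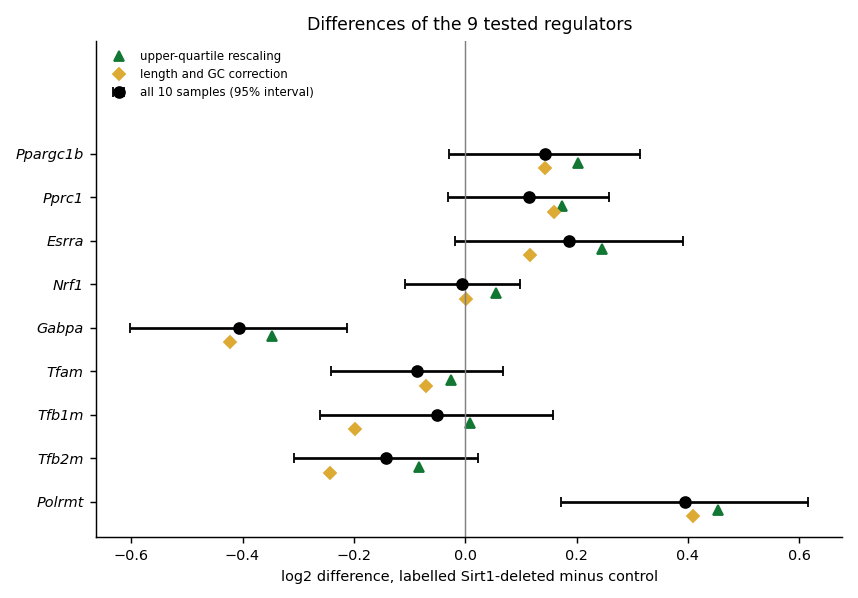
Log2 difference (labelled Sirt1-deleted minus control) of the 9 tested members with its 95% interval in black. Coloured symbols give the difference after upper-quartile rescaling and after a correction for length and GC content. Polrmt lies between 0.39 and 0.45 and Gabpa between -0.42 and -0.35 under the settings drawn.

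Within the labelled Sirt1-deleted group the members did not follow one order. Replicate 12 was the highest for Ppargc1b, Pprc1, Esrra and Polrmt and the lowest for Gabpa, Tfam and Tfb2m. Across all tested genes it also lay farthest from the control mean. Its root mean square log2 distance was 0.735, against 0.520 to 0.667 in the others of its group. Replicate 10 was the highest for Nrf1, Tfam and Tfb2m and the lowest for Esrra and Polrmt. Neutrophil marker sums were highest in replicate 8, at 99982, and stood at 44849 in replicate 12. The T lineage marker sum was lowest in replicate 12, at 184776. The part of the cell mixture in these values was not tested.

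**Figure D4:**
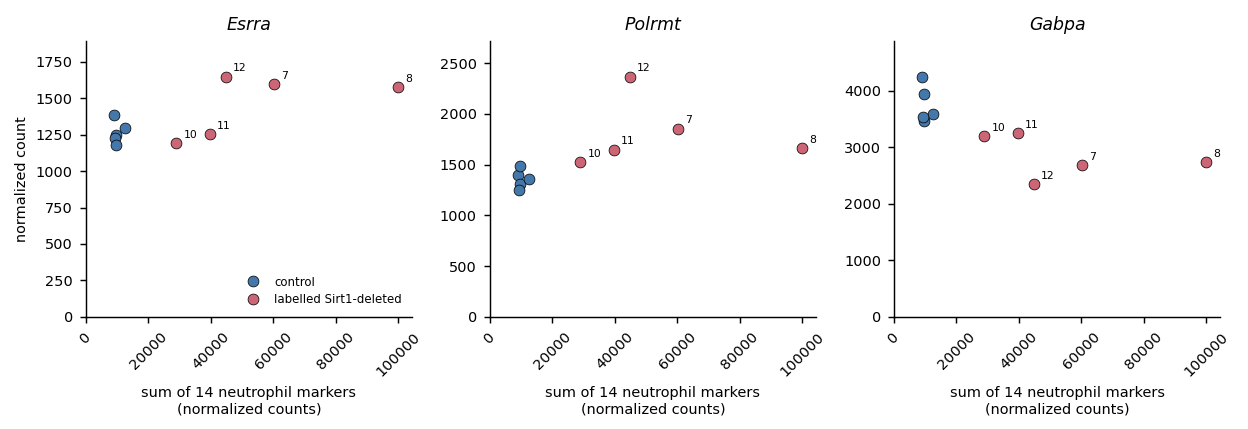
Normalized count of Esrra, Polrmt and Gabpa (vertical) against the sum of 14 neutrophil marker genes in normalized counts (horizontal), for 5 control (blue) and 5 labelled Sirt1-deleted (red, replicate numbers beside the points) samples. Replicate 12 has the highest Polrmt and lowest Gabpa at a neutrophil sum of 44849, and replicate 8 has the highest neutrophil sum, 99982.

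The other tested genes most like each member were found by the smallest Euclidean distance between values standardised over the 10 samples. Gabpa was nearest to Ap2a2, at a distance of 0.427, and Polrmt to Tchp, at 0.543, and these were the closest matches among the members. Esrra was nearest to Trim5 (0.683), Tfb1m to Dennd4a (0.753), Tfam to Gm18537 (0.804), Tfb2m to Reep3 (0.813), Pprc1 to Ceacam16 (0.813), Nrf1 to Slf1 (0.946) and Ppargc1b to Nova1 (1.21). None of these genes is on the lists of mitochondrial genes used here.

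Among 20 nuclear partners of these regulators (other receptors, cofactors and kinases of the axis), 6 were called lower and 1 higher (30.0% and 5.0%, beside 19.4% and 16.8% of all tested genes), and the median log2 difference was -0.13 beside -0.0001 over all tested genes. Nrip1, the corepressor RIP140 that opposes PGC-1 at nuclear receptors, fell from 6746 ± 1079 to 4040 ± 457 normalized counts (SD, 5 samples each), a log2 change of -0.73 with an SE of 0.10 (limma adjusted p = 5.95e-04). Creb1, a factor known to drive Ppargc1a, fell from 6265 ± 505 to 4668 ± 570 (SD, 5 samples each), a log2 change of -0.43 (limma adjusted p = 0.00250). Gabpb2, given above, was the other of the 3 largest falls. Pparg, the nuclear receptor PPARγ, was the gene that rose, from 22.3 ± 7.19 to 42.4 ± 5.92 (SD, 5 samples each), a log2 change of 0.94 with an SE of 0.24 (limma adjusted p = 0.00988). Its level was low, and macrophages are known to express it. The macrophage and monocyte marker sums given above moved with it, and their part was not tested.

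Genes that elongate, end or process mitochondrial transcripts were called at shares close to those of all tested genes. Of 24 tested genes, 4 were called higher and 5 lower (16.7% and 20.8%, beside 16.8% and 19.4%), with a median log2 difference of -0.02. Without 1 sample, 2 to 6 were higher and 1 to 5 lower, and only 1 was lower without labelled Sirt1-deleted replicate 7, replicate 12 or control replicate 2. Mterf1a and Mterf1b, near-identical copies of a terminator gene whose reads can be split between them, had log2 differences of 0.42 (SE 0.11, limma adjusted p = 0.00994) and 0.36 (SE 0.12, limma adjusted p = 0.0291). Fastk, a relative of the FASTK-domain RNA-binding proteins of mitochondria, rose by 0.30 (limma adjusted p = 0.0102). The largest falls were Elac2, which trims the 3′ end of tRNAs (-0.32, limma adjusted p = 0.0110), Ptcd1 (-0.23, limma adjusted p = 0.0275) and Lrpprc, which stabilises mitochondrial mRNAs (-0.22, limma adjusted p = 0.0331). The calls of Ptcd1 and Lrpprc were lost under upper-quartile rescaling (limma adjusted p = 0.0717 and 0.0720). There the list counted 6 higher and 1 lower, beside 3171 and 2247 of all 15282 genes tested. Once length and GC content were corrected for, it counted 2 higher and 10 lower, beside 1826 and 3862 of all 15276 tested genes. Mterf1b was not called there (0.13, limma adjusted p = 0.39985).

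Among 17 genes for mitochondrial DNA replication and maintenance, 4 were called higher and 2 lower, beside 16.8% and 19.4% of all tested genes. Slc25a33, a pyrimidine nucleotide carrier of the inner membrane, rose from 112 ± 17.1 to 171 ± 3.03 normalized counts (SD, 5 samples each), a log2 change of 0.62 with an SE of 0.12 (limma adjusted p = 0.00297). Twnk, the replicative helicase Twinkle, rose by 0.31 (SE 0.07, limma adjusted p = 0.00524), and Ssbp1, the single-stranded DNA binding protein, by 0.24 (SE 0.05, limma adjusted p = 0.00368). Polg, the catalytic subunit of the DNA polymerase, was the other gene called higher. Lig3, the DNA ligase shared with the nucleus, fell by 0.43 on the log2 scale (SE 0.12, limma adjusted p = 0.0151) and Top3a by 0.19 (SE 0.05, limma adjusted p = 0.0162). Upper-quartile rescaling gave 7 higher and 1 lower, beside 3171 and 2247 of all 15282 genes tested there. Top3a was not called under that rescaling (limma adjusted p = 0.0532). Polrmt and Twnk, the polymerase and the helicase, were thus both called higher, while Tfam was not called.

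Among 24 import and chaperone genes, 15 were called higher and 2 lower (62.5% higher beside 16.8% of all tested genes), with a median log2 difference of 0.21. Hspe1, the matrix chaperonin HSP10, rose from 7346 ± 852 to 12140 ± 1177 normalized counts (SD, 5 samples each), a log2 change of 0.73 with an SE of 0.08 (limma adjusted p = 2.30e-04). Timm13 rose by 0.43 (limma adjusted p = 7.56e-04) and Tomm6 by 0.40 (limma adjusted p = 0.00139). The import receptor gene Tomm70a fell by 0.28 (limma adjusted p = 0.0103) and Timm22 by 0.30 (limma adjusted p = 0.0428, or 0.0895 with upper-quartile rescaling). Length moved with these calls: genes called higher in the whole table had a median transcript of 2.28 kb and genes called lower one of 4.09 kb. After a correction for length and GC content, 8 of the 24 import genes were called higher and 2 lower. Under that correction 1826 of all 15276 tested genes were called higher and 3862 lower. Hspe1, Timm13 and Tomm6 were still higher, at 0.55, 0.27 and 0.22.

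Among 18 tested genes that PGC-1 and ERR proteins are known to drive, 5 were called lower and 1 higher (27.8% and 5.56%, beside 19.4% and 16.8% of all tested genes), with a median log2 difference of -0.11. Cpt1a, which carries fatty acids into mitochondria, showed the largest fall of the lists, from 8044 ± 683 to 2852 ± 538 normalized counts (SD, 5 samples each), a log2 change of -1.51 with an SE of 0.11 (limma adjusted p = 3.52e-05). Acadvl, the first enzyme of long-chain fatty acid oxidation, fell by 0.46 (SE 0.06, limma adjusted p = 3.86e-04), and Ucp2, an inner-membrane carrier, by 0.45 (SE 0.09, limma adjusted p = 0.00242). Idh3a, an enzyme of the citric acid cycle, was also called lower. The correction for length and GC content raised the count of lower genes to 8. Over all 15276 tested genes it raised that count too, from 2956 to 3862. Cycs, which encodes cytochrome c and is a classic NRF1 target, was the gene that rose, from 4789 ± 330 to 6451 ± 318 (SD, 5 samples each), a log2 change of 0.43 with an SE of 0.06 (limma adjusted p = 4.07e-04).

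The transcripts that POLRMT makes were measured too. Of 13 mRNAs encoded in mitochondrial DNA, 12 were called higher and none lower (92.3% higher beside 16.8% of all tested genes). The median log2 difference was 0.44, and mt-Nd5 was not called (0.19, limma adjusted p = 0.0923). The 3 largest were mt-Nd2 (0.49), mt-Nd1 (0.48) and mt-Co2 (0.47), with limma adjusted p of 0.00234, 0.00202 and 0.00313. Under quantile normalization 9 of the 13 were called higher, with a median of 0.25. All 12 calls were lost after the correction for length and GC content, where 0 were higher and 3 lower. Of all 15276 tested genes, 1826 were higher and 3862 lower there. Like Hspe1 and Cycs, the mitochondrial genome has copies in nuclear DNA, and reads shared with them were not checked here.

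**Figure D5:**
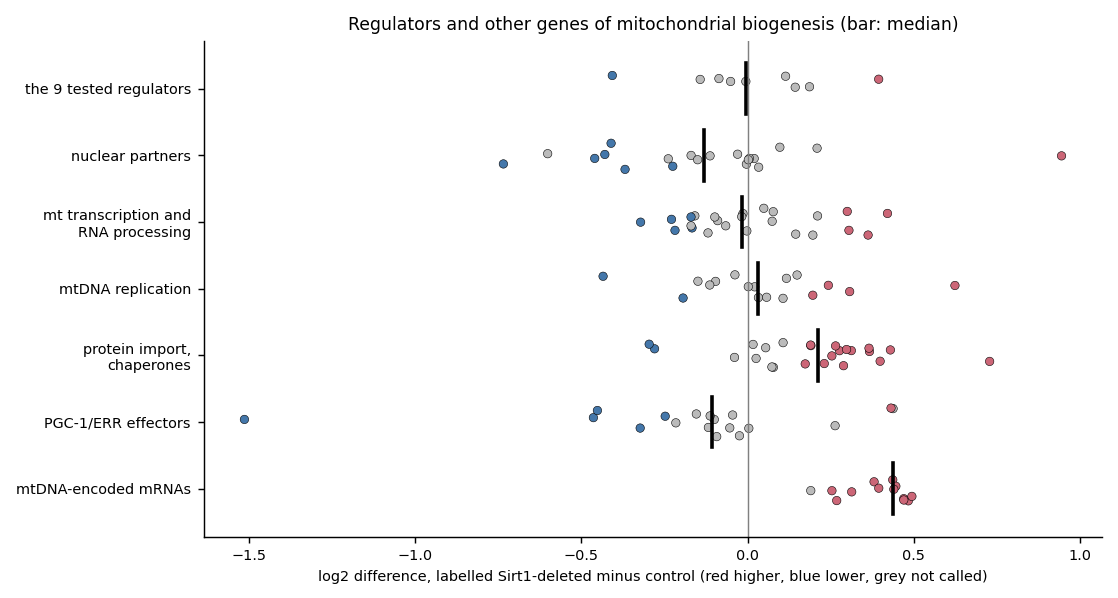
Log2 difference (labelled Sirt1-deleted minus control) of each tested gene in the member set and in 6 other lists (points: red called higher, blue called lower, grey not called; black bar: median). The members centre near 0 (median -0.01) with 1 gene called on each side, while import genes and mitochondrially encoded mRNAs lie mostly above 0, with medians of 0.21 and 0.44.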

How the data were processed

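RNA-seq of 10 leukemic spleens (5 labelled Sirt1-deleted, 5 control) was used as gene-level values. Per the submitters' processing notes, kallisto 0.44.0, DESeq and the genome build mm10 were used, with no role or order given. The values the authors deposited were taken as a signal, counts scaled by normalization factors, since they are not whole. The annotation used and any filter on genes are not given in the sources used here. Of the values worth at most 8.5 reads, 68.3% to 74.3% per sample were whole to within 0.1 read. Whole reads could therefore not be recovered, and count tests were not used. Depth was approximated from the most frequent low value.

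Genes with a mean of at least 10 were tested on log2(value + 1) with limma 3.58.1 in R 4.3.3 (group as the only term, intensity trend, Benjamini-Hochberg adjustment over 15276 genes, threshold 0.05), a scale that understates changes of low genes. The script was tested on simulated data. The members and gene lists were chosen with earlier results of these data known. Genes named beyond the members are, in each list, up to 3 called genes with the largest rise and up to 3 with the largest fall, and the gene nearest to each member in profile. Gabpb1, mt-Nd5, Polg, Idh3a and the genes overlapping members were named after their values were seen, as were the neighbours' symbols. Listed genes that matched no symbol (Prorp, mt-Rnr1, mt-Rnr2, Ahsp, Madcam1) were not analysed here. Transcript lengths and gene positions are from GENCODE M21 (GRCm38, the assembly of mm10), matched by symbol for 15266 of 15276 tested genes.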

Additional observations from a re-analysis of the deposited data

Results flagged for a closer look

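Among 76 sets of 5 samples (the members, Sirt1 and the genes named from the lists, in each group), 3 held a sample whose gap to its neighbour exceeded 0.71 of the group's range, where chance at 1 in 20 gives 3.8. Control replicate 5 was the lowest control for Tfb2m, at 1280 normalized counts, while the other controls lay at 1521 to 1612. Control replicate 2 was the highest control for Nrip1, at 8635 against 5962 to 6580, and the lowest control for mt-Nd2, at 35691 against 44003 to 45786.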

How the results depend on the processing

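No paired analysis was possible because replicate numbers differ between the groups. The planned count tests (edgeR, DESeq2) were not run for lack of whole reads. Gabpa stayed lower (-0.53 to -0.34) and Polrmt higher (0.29 to 0.51), past an adjusted p of 0.05, under all 22 alternatives run for each. The values -0.53 and 0.51 came from the fit without labelled Sirt1-deleted replicates 10 and 11. Those replicates had the highest Gabpa and the lowest Polrmt of their group, so that fit is no test of either gene. At an adjusted p under 0.01, 1 member was called lower and 0 higher, and 2850 genes changed against 5518. The exact rank-sum test called 3659 genes. Members called higher numbered 2 with limma sample weights and 2 without labelled Sirt1-deleted replicates 10 and 11, Esrra being added in both (0.25 and 0.34), though the samples left out are those with the lowest Esrra of their group, so the second is no test of Esrra. Members called lower numbered 2 after the length and GC correction, with Tfb2m added (-0.24, limma adjusted p = 0.0273). Without 1 sample, 1 to 2 members were higher, 1 to 2 lower, and 4207 to 6259 genes changed. Nrf1 changed sign under upper-quartile rescaling (0.055), quantile normalization (0.057) and the length and GC correction (0.00086), and ranged from -0.032 to 0.013 without 1 sample. Tfb1m changed sign under upper-quartile rescaling (0.0089) and ranged from -0.091 to 0.011 without 1 sample. Upper-quartile rescaling raised the median of all genes to 0.06 and turned the share of called genes that were higher from 46.4% to 58.5%, while the length and GC correction lowered it to 32.1%. The causes were not tested. The length and GC correction and the omission of 2 samples together were chosen after seeing the data. Mterf1b (5 of 10 fits without 1 sample called), Ptcd1 (6), Lrpprc (4) and Timm22 (3) lost their calls in the other such fits. Low depth limits only Ppargc1a among the members.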
